A study of Rattus norvegicus with 4 samples.

Results

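A pair of droplet single-cell libraries of rat hippocampus, read from the barcodes ending in 3 and in 4 of 1 deposited matrix and called set 3 and set 4 here, were compared with each other. Cells were kept with at least 500 unique molecular identifiers (UMIs, each standing for 1 captured RNA molecule), at least 300 genes and at most 20% of UMIs from the mitochondrial genome. This left 5315 cells in set 3 and 8760 in set 4, 14075 of the 28879 kept cells in the series. Cells were classed as microglia with at least 5 UMIs of C1qa, C1qb and C1qc together, as endothelial cells with at least 3 UMIs of Cldn5 and 1 of Flt1, and as oligodendrocytes with at least 8 UMIs of Mag, Mog, Mobp and Ermn together.

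The series concerns depression after stroke in wild type Sprague Dawley rats, male and 10 to 12 months old. Its 4 samples are titled NC, MCAO, DEPR and MD. The design text describes 2 groups of 10 rats, all with a filament placed in the middle cerebral artery on 1 side and 1 group then exposed to chronic stress, with 5 hippocampi per group used for sequencing, and it does not describe 4 groups. The barcode suffixes are not linked to these titles in the labels or files, so it is unknown which treatment set 3 or set 4 received, and whether either came from an animal without surgery. Each set is 1 library, so no difference below has a replicate check and none was tested. All intervals are 95% intervals that cover counting error only.

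Microglia are the resident macrophages of the brain, endothelial cells line its vessels and form the blood-brain barrier, and oligodendrocytes wrap axons in myelin. Enzymatic dissociation of brain tissue is itself known to induce immediate early genes, the transcription factor genes that respond first to a stimulus, and heat shock genes. Macrophages at the borders of the brain share the complement genes of microglia, so a class drawn from C1q genes can hold both.

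Set 3 held 36242408 UMIs over 5884 barcodes and set 4 held 54295520 over 9504, and they shared 9 barcode sequences, against 10 to 27 for the other pairs of sets. The classes carried the markers of their names: all 10 microglial markers were detected in microglia, at a summed 8174 counts per 1000000 UMIs (CPM) in set 3 and 7202 CPM in set 4, against 389 and 487 CPM in endothelial cells and 366 and 428 CPM in oligodendrocytes. Endothelial markers stood at 13682 and 12939 CPM in their own class, 447 and 480 CPM in microglia and 277 and 289 CPM in oligodendrocytes. Oligodendrocyte markers stood at 48288 and 46643 CPM in their own class. They were also present at 2829 and 3323 CPM in microglia and at 2555 and 2477 CPM in endothelial cells. Cells that met more than 1 class rule numbered 144 in set 3 and 313 in set 4. Those that met the rules of microglia and oligodendrocytes were 4.18% of oligodendrocytes in set 3 and 7.46% in set 4.

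Microglia made up a larger share of set 4 and oligodendrocytes a larger share of set 3, but the direction of both depended on the limit on mitochondrial UMIs. Microglia were 2007 cells in set 3, or 37.8% (36.5 to 39.1%), and 3893 cells in set 4, or 44.4% (43.4 to 45.5%), a difference of 6.68 percentage points (5.01 to 8.34). Oligodendrocytes were 1938 cells or 36.5% in set 3 and 2548 cells or 29.1% in set 4, a difference of -7.38 points (-8.98 to -5.77). Endothelial cells were 13.1% and 13.2%, a difference of 0.11 points with an interval from -1.05 to 1.25. The 4657 cells of set 3 and 7519 of set 4 with at least 2000 UMIs were also thinned to 2000 UMIs each. Among them the differences were 6.71 points for microglia and -7.17 for oligodendrocytes. Cells with fewer UMIs are left out of these and of all later values after thinning.

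Cells rich in mitochondrial UMIs were unevenly spread over the sets and classes. In oligodendrocytes, 1040 of 1938 cells in set 3 had over 10% mitochondrial UMIs, or 53.7%, against 310 of 2548 in set 4, or 12.2%. The shares were 52.4% and 26.4% in endothelial cells and 6.98% and 5.57% in microglia. With the limit lowered from 20% to 10%, a choice made after the data were seen, the difference was -3.77 points for microglia, 4.29 for oligodendrocytes and 1.92 for endothelial cells. Requiring 1000 UMIs and 500 genes at the original limit left 6.85 and -7.52 points for microglia and oligodendrocytes. These libraries therefore give no order of the shares that holds at both limits.

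**Figure D1:**
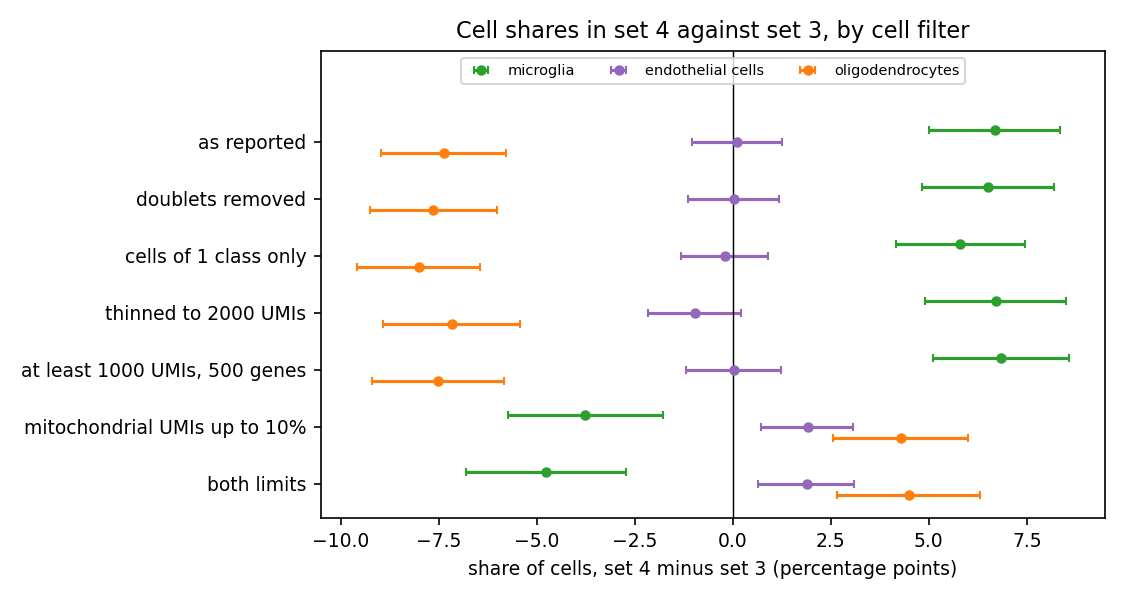
Share of cells in set 4 minus set 3 in percentage points (horizontal axis) for 3 cell classes under 7 cell filters (vertical axis). Points are differences and bars their 95% intervals for counting error. Microglia and oligodendrocytes lie on opposite sides of 0 and change places at the 10% mitochondrial limit.

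Within each class the libraries were close for nearly all genes. A gene with at least 50 UMIs over both sets was called when its CPM differed at least 2-fold and the exact interval of the ratio left out 1. In microglia 81 of 10736 genes were higher in set 4 (0.754%) and 61 higher in set 3 (0.568%). In endothelial cells 75 of 9521 were higher in set 4 (0.788%) and 16 in set 3 (0.168%), and in oligodendrocytes 99 of 10417 (0.95%) and 21 (0.202%). The median log2 ratio over all genes tested was 0.06, 0.04 and 0.05 in the 3 classes. At these shares a short gene list would most often hold no call, so a list without a call says little by itself.

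Most of these calls rested on few UMIs or few cells. At 50 UMIs, counting error alone can carry a gene past 2-fold. Among genes with at least 200 UMIs, 26 were higher in set 4 (0.318%) and 7 in set 3 (0.0855%) in microglia, 15 (0.241%) and 1 (0.0161%) in endothelial cells, and 21 (0.266%) and 4 (0.0508%) in oligodendrocytes. In the set where the gene was higher, 10 cells often carried at least 50% of its UMIs. This held for 78 of the 142 genes called in microglia, 43 of 91 in endothelial cells and 62 of 120 in oligodendrocytes. With the 1% of cells richest in each gene left out, 14 of the 81 and 5 of the 61 genes in microglia were still called, 25 of 75 and 1 of 16 in endothelial cells, and 16 of 99 and 6 of 21 in oligodendrocytes. A call could also end there because fewer than 50 UMIs were left, whatever the ratio. Genes still measured were 9088 in microglia, 8612 in endothelial cells and 9068 in oligodendrocytes. Over all genes still measured without those cells, the rule called 0.979% higher in set 4 and 0.374% higher in set 3 in microglia, 0.882% and 0.151% in endothelial cells, and 1.48% and 0.397% in oligodendrocytes, so many of the genes called then were others.

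**Figure D2:**
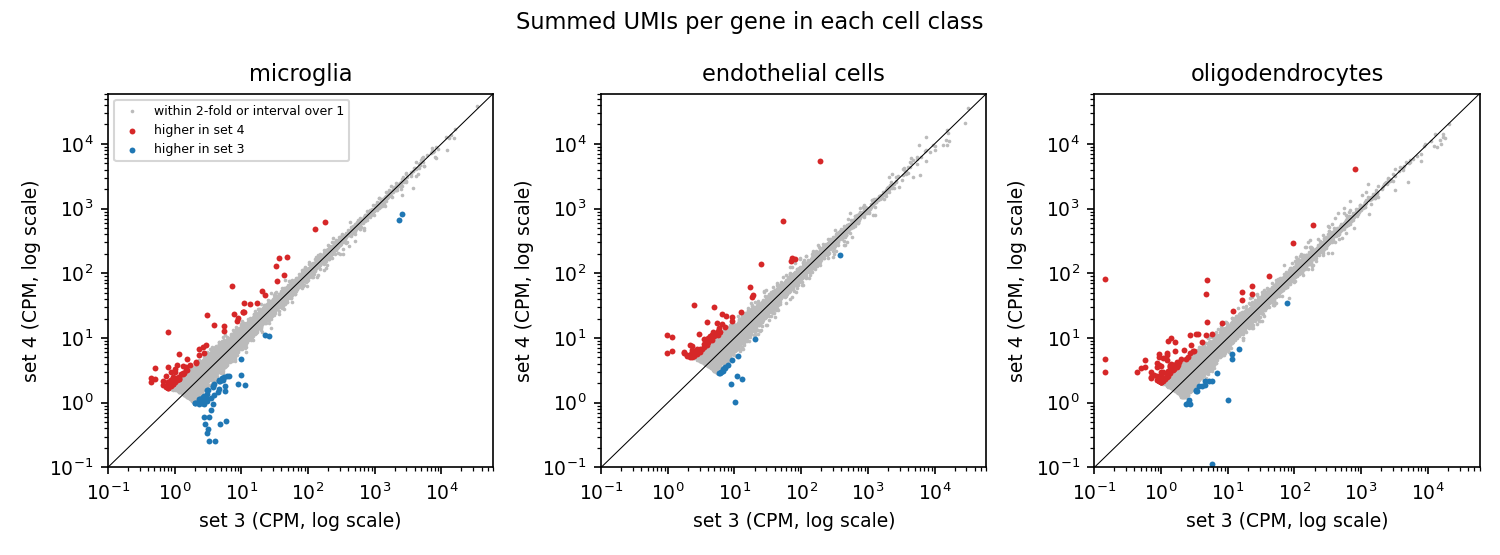
CPM of each tested gene in set 3 (horizontal, log scale) and set 4 (vertical, log scale) in 3 cell classes. Each point is 1 gene, coloured points are the called genes, and the line marks equal levels; grey points hug the line, and called genes are mostly at low CPM.

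In microglia, the genes called higher in set 4 included those of border macrophages, while the genes of microglia themselves were near equal. Mrc1, the mannose receptor of border macrophages, stood at 11.1 CPM in set 3 and 34.4 CPM in set 4, a log2 ratio of 1.63 (1.37 to 1.89). F13a1, a coagulation factor subunit made by such macrophages, stood at 7.75 and 23.3 CPM, a log2 ratio of 1.59. Lyve1 and Cd163, a hyaluronan receptor and a haemoglobin scavenger receptor, had log2 ratios of 1.28 and 1.39. With these, 4 of the 7 measured border macrophage markers were called higher, and their summed level was 91.6 CPM in set 3 and 179 CPM in set 4.

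The share of border macrophages in the class was also higher in set 4, with intervals that overlap. The part of these cells in the calls was not tested. Cells with at least 2 UMIs of Mrc1, Pf4, Cd163 and Lyve1 together were 106 of 2007 in set 3, or 5.28% (4.34 to 6.35%), and 264 of 3893 in set 4, or 6.78% (6.01 to 7.62%). Ccl7, a chemokine gene that attracts monocytes, stood at 43.5 CPM in set 3 and 94.9 CPM in set 4, a log2 ratio of 1.13. Without the border macrophages the log2 ratio of Ccl7 was -0.03 and that of Lyve1, part of the rule for these cells, -0.38. F13a1 stood at 1.54 without them, still past 2-fold, and was not called because too few of its UMIs were left. Mrc1, also part of the rule, stood at 0.80 and was not called. Ratios above 2-fold also remained for Clec10a, a lectin gene of macrophages and dendritic cells (1.48), and Dab2, an endocytic adaptor gene (1.26). Cd163 stood at 1.22, but it is part of the rule too, so no cell left held 2 of its UMIs. It had 40 UMIs in set 3 and 180 in set 4 before the cells were left out. In sets 1 and 2, Mrc1 stood at 10.5 and 2.33 CPM.

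The homeostatic genes of microglia did not separate the sets. P2ry12, the purinergic receptor of resting microglia, stood at 121 CPM in set 3 and 116 CPM in set 4, a log2 ratio of -0.06 (-0.15 to 0.03). Cx3cr1, the fractalkine receptor, stood at 325 and 357 CPM, and Tmem119 at 454 and 432 CPM. None of 12 homeostatic genes was called, and their median log2 ratio was -0.05. Ctss, a lysosomal protease, stood at 1424 and 1097 CPM, a log2 ratio of -0.38, and remained short of 2-fold.

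Inflammatory lists held 1 called gene in microglia. None of 19 disease-associated genes was called (median log2 ratio 0.13), nor any of 7 MHC class II genes (-0.18), 20 interferon response genes (0.10) or 10 complement genes (-0.01). All 7 MHC class II ratios were below 1, and the intervals of 5 lay below 1. Of 17 cytokine and chemokine genes, Ccl7 alone was called, while the intervals of 10 lay above 1 and those of 3 below. Apoe, the lipid carrier gene induced in reactive microglia, stood at 13727 CPM in set 3 and 13802 CPM in set 4, and Cd74, the invariant chain of MHC class II, at 4849 and 4636 CPM.

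Red cell and neuronal transcripts also differed in the microglial class. Hba-a2, a haemoglobin chain, stood at 129 CPM in set 3 and 478 CPM in set 4, a log2 ratio of 1.89. Its 10 richest cells held 83.8% and 85.2% of its UMIs, its log2 ratio was 0.68 without the richest 1% of cells, and sets 1 and 2 stood at 5720 and 3405 CPM. Nrgn, a neuronal calmodulin-binding protein gene, was lower in set 4, at 25.8 and 10.7 CPM, a log2 ratio of -1.28 (-1.52 to -1.04), and at -1.30 without the richest cells. Its call ended with the class threshold doubled and with border macrophages left out. None of 17 myelin genes was called in this class, with a median log2 ratio of 0.24. Intervals of 15 of them lay above 1 and that of 1 below.

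In endothelial cells, some genes of leukocytes were called higher in set 4, and genes of the barrier were not called. Ptprc, which encodes the leukocyte antigen CD45, stood at 7.52 CPM in set 3 and 22.1 CPM in set 4, a log2 ratio of 1.56 (1.05 to 2.10). Batf, a transcription factor of lymphocytes, stood at 6.55 and 23.6 CPM, and Fgl2, a fibrinogen-like protein gene, at 17.0 and 61.3 CPM, both with a log2 ratio of 1.85. Tnfaip3, an inhibitor of NF-kappaB signalling, stood at 9.25 and 21.4 CPM, a log2 ratio of 1.21.

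Markers of T cells moved with these genes. Of 5 measured T cell markers, Cd3e, Cd3d and Cd8a were called higher, and the summed level of the list was 18.9 CPM in set 3 and 42.7 CPM in set 4. Ccl5, a chemokine gene of T cells, stood at 73.2 and 173 CPM, and 10 cells held 84.5% and 82.9% of its UMIs. Cells with at least 2 UMIs of Cd3d, Cd3e and Cd3g were 5 of 696 endothelial cells in set 3 and 15 of 1157 in set 4, or 0.718% (0.234 to 1.67%) and 1.30% (0.727 to 2.13%), intervals that overlap. The part of such cells in the calls was not tested. The log2 ratio of Ptprc was 1.30 with doublets removed and 2.12 with cells of more than 1 class left out. Other leukocyte lists were split. Summed NK cell markers stood at 5.40 and 15.3 CPM and B cell markers at 3.85 and 20.5 CPM. Border macrophage markers were lower in set 4, at 44.7 and 32.3 CPM, as were neutrophil markers, at 71.5 and 63.5 CPM. Monocyte markers stood at 499 and 436 CPM, although Plac8 of that list was called higher.

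The blood-brain barrier genes were close to equal. Slc2a1, the glucose transporter of brain endothelium, stood at 1570 CPM in set 3 and 1446 CPM in set 4, a log2 ratio of -0.12 (-0.16 to -0.08). Abcb1a, the efflux pump P-glycoprotein, stood at 1509 and 1429 CPM, and Slco1c1, a thyroid hormone transporter, at 1103 and 1098 CPM. None of 17 barrier transporters was called; their median log2 ratio was -0.12, and the intervals of 11 lay below 1. None of 12 junction genes, 17 angiogenesis genes or 6 leukocyte adhesion genes was called either. Vcam1, which binds leukocytes to inflamed vessels, came nearest among the adhesion genes, at 95.4 and 167 CPM, a log2 ratio of 0.81 (0.66 to 0.96).

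In oligodendrocytes, myelin genes were close to equal, while interferon, chemokine and T cell genes were called higher in set 4. Mbp, the myelin basic protein gene, stood at 4253 CPM in set 3 and 3941 CPM in set 4, a log2 ratio of -0.11 (-0.13 to -0.09). None of 17 myelin genes was called. Cxcl10, an interferon-induced chemokine gene, stood at 16.5 and 51.1 CPM, a log2 ratio of 1.63 (1.42 to 1.85). Of 12 measured interferon response genes, 3 were called, Cxcl10, Ifit2 (3.58 and 11.5 CPM) and Ifit3 (0.86 and 2.28 CPM), and the list's median log2 ratio was 0.45.

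Cxcl2, a chemokine gene that attracts neutrophils, stood at 41.4 CPM in set 3 and 91.0 CPM in set 4 in oligodendrocytes, a log2 ratio of 1.14 (0.999 to 1.28). Egr2, an immediate early transcription factor, stood at 16.4 and 38.7 CPM, a log2 ratio of 1.24 (1.02 to 1.46). Ifi27l2b, an interferon-induced gene, stood at 4.87 and 17.6 CPM, a log2 ratio of 1.85, and its call held under every alternative run for single genes. The calls of Cxcl2 and Egr2 ended under the stricter cell filter, which includes the 10% mitochondrial limit, at log2 ratios of 0.31 and 0.69. With cells of more than 1 class left out, the call of Cxcl2 ended too, while Egr2 stood at 1.14. Levels in microglia were higher, at 1444 and 1489 CPM for Cxcl2, 435 and 472 CPM for Cxcl10 and 227 and 265 CPM for Egr2. The part of microglial RNA in the oligodendrocyte values was not tested.

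Markers of T cells and of some other cell types were higher in set 4 in the oligodendrocyte class, and those of several others were not. Of 6 measured T cell markers 5 were called higher, and their summed level was 8.60 CPM in set 3 and 25.7 CPM in set 4. The share of T cells in the class was 2 of 1938 in set 3 and 21 of 2548 in set 4, or 0.103% (0.0125 to 0.372%) and 0.824% (0.511 to 1.26%). The summed level of neuronal markers was 15.6 and 9.34 CPM, that of monocyte markers 64.0 and 48.1 CPM and that of pericyte markers 38.3 CPM in both sets. The part of such RNA in the calls was not tested.

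The genes called higher in set 4 in oligodendrocytes numbered 40 in place of 99 with doublets removed, and 65 with cells of 1 class only. The log2 ratio of Cxcl10 was 2.11 and 2.02 in these settings and that of Ifit2 0.77 and 0.76. Without immunoglobulin-rich cells Cxcl10 stood at 1.28. Its call ended with thinning, which leaves fewer UMIs, and held under the other alternatives, including the one without the richest 1% of cells. Few cells carried much of both genes: 10 cells held 59.6% of the Cxcl10 UMIs in set 3 and 59.7% in set 4. For Ifit2 these shares were 64% and 64.3%. Cxcl2 stood at 1.32 without doublets and 0.60 with cells of 1 class. Ifit3, with 12 UMIs in set 3 and 41 in set 4, stood at 0.55 without doublets and 2.30 with cells of 1 class, and its call ended in 6 of the alternatives.

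The promoters of Cxcl10, Cxcl2 and Egr2 are shown because these 3 genes were called in oligodendrocytes and differ in the response elements they hold. The letters are the 250 bases before the RefSeq start of each gene (assembly GRCr8), 5′ to 3′ along the gene, at chr14:15988816-15989065 on the plus strand, chr14:17467256-17467505 on the minus strand and chr20:21054442-21054691 on the minus strand. Capitals mark matches, on either strand, to GAAA, any 2 bases and GAAA (an interferon-stimulated response element), to GGG, any 3 bases and TTCC (a form of the NF-kappaB site), and to CC, 6 bases of A or T and GG (a serum response element).
Cxcl10: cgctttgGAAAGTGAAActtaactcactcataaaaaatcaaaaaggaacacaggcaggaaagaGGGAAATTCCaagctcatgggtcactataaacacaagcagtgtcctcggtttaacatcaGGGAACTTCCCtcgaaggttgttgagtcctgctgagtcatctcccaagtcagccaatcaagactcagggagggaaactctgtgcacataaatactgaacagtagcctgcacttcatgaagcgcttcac
Cxcl2: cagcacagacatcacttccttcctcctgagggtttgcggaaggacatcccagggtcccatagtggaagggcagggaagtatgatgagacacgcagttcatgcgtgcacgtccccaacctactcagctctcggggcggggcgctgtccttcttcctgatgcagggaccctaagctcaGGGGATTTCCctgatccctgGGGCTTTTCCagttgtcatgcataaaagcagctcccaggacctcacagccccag
Egr2: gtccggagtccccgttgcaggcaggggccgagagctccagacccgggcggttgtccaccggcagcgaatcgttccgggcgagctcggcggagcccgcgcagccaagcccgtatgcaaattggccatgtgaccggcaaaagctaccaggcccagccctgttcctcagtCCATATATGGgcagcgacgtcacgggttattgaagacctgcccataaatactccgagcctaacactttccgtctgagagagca

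The Cxcl10 window held the interferon element starting 243 bases before the start and the NF-kappaB form at 187 and, as overlapping matches on both strands, at 128 and 127 bases. The Cxcl2 window held the NF-kappaB form at 74 and 54 bases, and the Egr2 window the serum response element at 83 bases. Among all 33469 promoter windows of this length, 3.41% held the first motif, 4.53% the second, and 501 windows the third. The genes and motifs were picked with the values known, and a match of letters is a description, not a bound site.

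Most immediate early and heat shock genes of oligodendrocytes stood at higher levels in set 4. Over all cells of the class the difference was less than 2-fold for all but Egr2, and its size depended on the mitochondrial limit. Fos stood at 1260 CPM in set 3 and 2364 CPM in set 4, a log2 ratio of 0.91 (0.88 to 0.93). After thinning to 2000 UMIs, 80.0% of oligodendrocytes in set 3 and 90.4% in set 4 had a Fos UMI. Of 21 immediate early genes measured, the intervals of 19 lay above 1 and Egr2 alone was called, and the median log2 ratio was 0.63 against 0.05 over all genes. Hspa1b and Dnajb1, a heat shock protein and its partner, stood at 563 and 1024 CPM and at 159 and 301 CPM, log2 ratios of 0.86 and 0.92. Of 12 heat shock genes measured, the intervals of 10 lay above 1 and that of Hspa8, at a log2 ratio of -0.10, below 1.

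With the mitochondrial limit at 10%, the median of the immediate early genes was 0.21, with 13 intervals above 1 and 2 below, and Fos stood at 1752 CPM in set 3 and 2443 CPM in set 4, a log2 ratio of 0.48 (0.45 to 0.51). The heat shock median went from 0.38 to 0.08. In microglia Fos stood at 5296 and 6164 CPM, a log2 ratio of 0.22, and in endothelial cells at 7415 and 8085 CPM, a log2 ratio of 0.12. The medians of the immediate early list were 0.19 in microglia and 0.12 in endothelial cells. Microglial markers in oligodendrocytes, at 366 and 428 CPM, were also somewhat higher in set 4, and their part in these values was not tested. With cells of 1 class only, Fos stood at a log2 ratio of 0.94, Fosb at 1.03, Egr1 at 1.05 and Dnajb1 at 1.08. In that setting 4 of 19 immediate early genes and 1 of 12 heat shock genes were called, with list medians of 0.57 and 0.33.

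**Figure D3:**
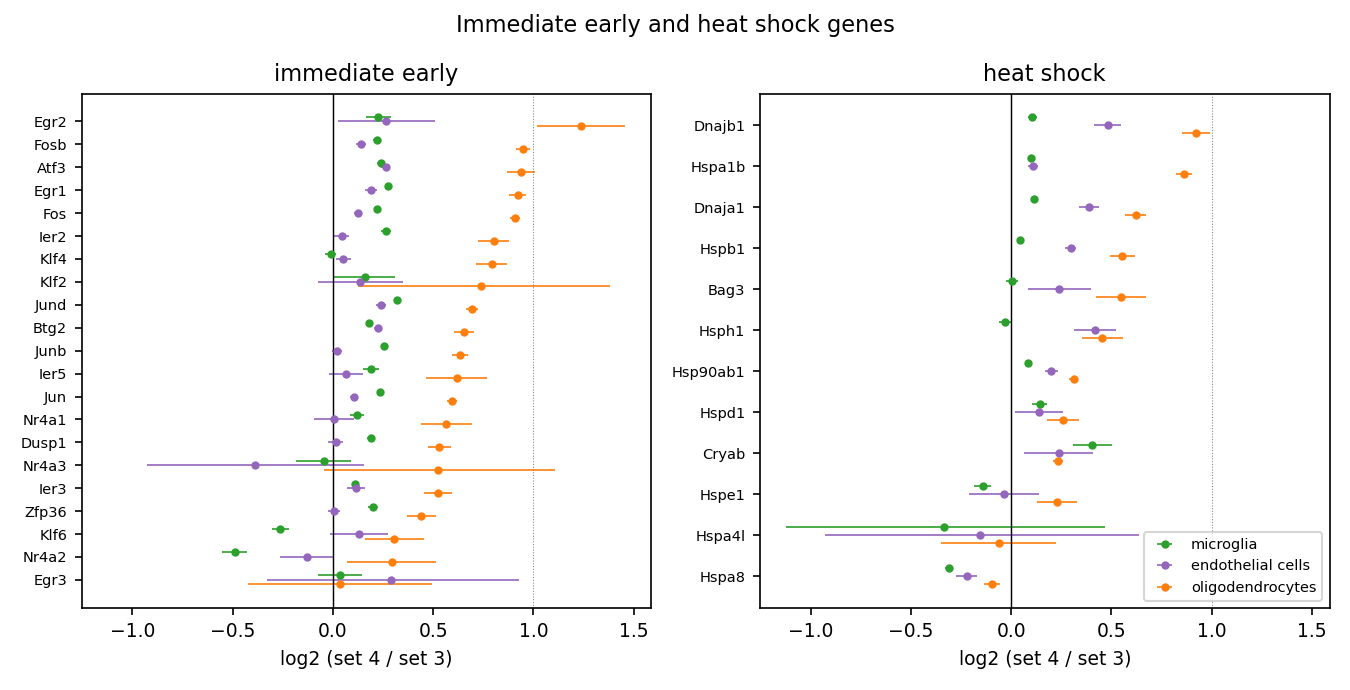
Log2 ratio of set 4 to set 3 (horizontal axis) for immediate early genes (left) and heat shock genes (right) in 3 cell classes. Points are ratios of summed UMIs, bars their 95% intervals for counting error, and the dotted line marks 2-fold; oligodendrocyte points lie to the right of the others for most genes, and Egr2 alone passes 2-fold.

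Transcripts of the mitochondrial genome stood lower in set 4 in all 3 classes. The mitochondrial share of UMIs itself set the cell filter, so these genes are not independent of it. Of 13 protein genes, the intervals of 12 lay below 1 in each class, with median log2 ratios of -0.38 in microglia, -0.40 in endothelial cells and -0.53 in oligodendrocytes. Mt-nd2, a subunit of respiratory complex I, stood at 3696 and 2051 CPM in microglia, at 6039 and 3357 CPM in endothelial cells and at 5020 and 2608 CPM in oligodendrocytes. Mt-atp8, a subunit of ATP synthase, was the 1 called gene, at 380 and 189 CPM in endothelial cells, a log2 ratio of -1.01.

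The differences were unequal between mitochondrial genes. Mt-co2, a subunit of cytochrome oxidase, had log2 ratios of -0.07, -0.14 and -0.24 in microglia, endothelial cells and oligodendrocytes, against -0.85, -0.85 and -0.94 for Mt-nd2. Mt-nd6, which is encoded on the opposite strand from the others, was the 1 gene whose interval held 1 in each class. At the 10% limit the list's median was -0.29 in oligodendrocytes, and Mt-nd2 stood at -0.77. Nuclear genes of the respiratory chain had medians of 0.01, -0.07 and -0.03, with none of 15 called in any class.

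**Figure D4:**
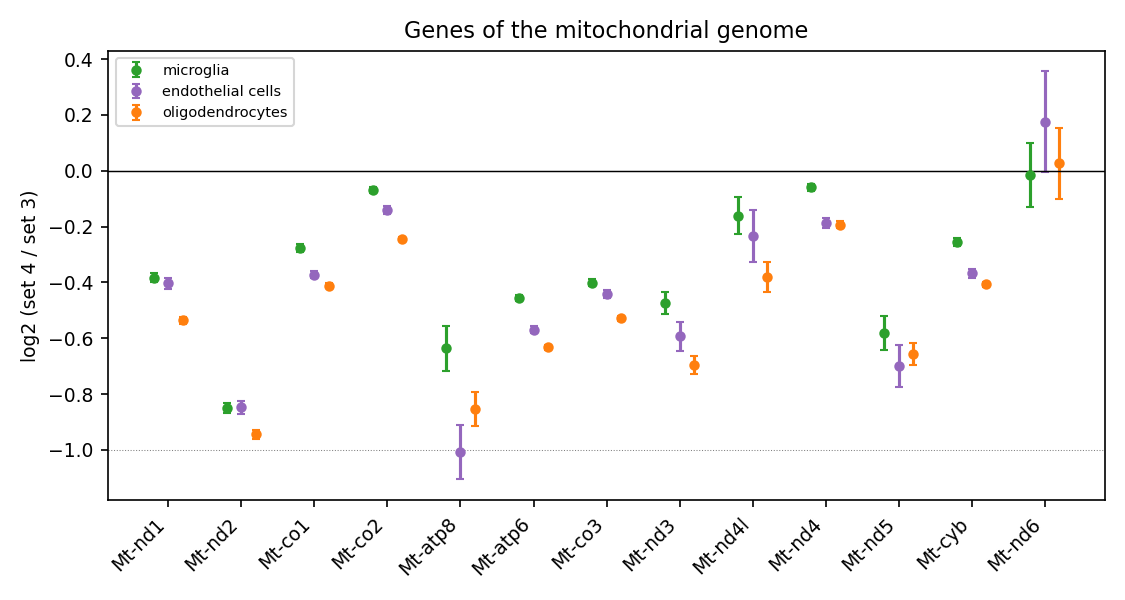
Log2 ratio of set 4 to set 3 (vertical axis) for 13 genes of the mitochondrial genome (horizontal axis) in 3 cell classes. Points are ratios of summed UMIs and bars their 95% intervals for counting error; all but Mt-nd6 lie below 0 in each class, Mt-nd2 near -0.85 to -0.94 and Mt-co2 from -0.07 to -0.24.

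Tomm6, a small subunit of the mitochondrial import channel, was lower in set 4 and spread over many cells. It stood at 76.8 CPM in set 3 and 34.5 CPM in set 4 in oligodendrocytes, a log2 ratio of -1.15 (-1.30 to -1.01), and at 23.1 and 11.2 CPM in microglia, a log2 ratio of -1.05. In endothelial cells it stood at 40.7 and 21.1 CPM, a log2 ratio of -0.95, and was not called. After thinning, 42.1% of oligodendrocytes in set 3 and 21.7% in set 4 had a Tomm6 UMI, and the call in oligodendrocytes held under every alternative run for single genes. In sets 1 and 2, oligodendrocytes stood at 62.3 and 22.5 CPM. Gapdh, a glycolytic enzyme gene, and Rpl32, a ribosomal protein gene, had log2 ratios of -0.63 and -0.53 in microglia, -0.49 and -0.60 in endothelial cells and -0.37 and -0.45 in oligodendrocytes.

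Immunoglobulin transcripts gave large ratios and were carried by few cells. Igh-6, an immunoglobulin heavy chain gene, stood at 2292 CPM in set 3 and 661 CPM in set 4 in microglia, and 10 cells held 96.5% and 88.3% of those UMIs. In endothelial cells it stood at 52.8 and 639 CPM and in oligodendrocytes at 193 and 565 CPM. Without the richest 1% of cells its log2 ratio was 0.06 in microglia, 0.44 in endothelial cells and 0.06 in oligodendrocytes. After thinning, 30.7% to 36.5% of the cells of every class and set had an Igh-6 UMI.

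Ighm and G0s2 were the 2 genes called higher in set 4 in all 3 classes. Ighm, the heavy chain of immunoglobulin M, had log2 ratios of 1.97 in microglia, 2.19 in endothelial cells and 3.98 in oligodendrocytes. Without the richest 1% of cells these were 0.66, 1.83 and 1.56, and the call in microglia ended. In endothelial cells Ighm had 20 UMIs in set 3 and 137 in set 4, and its call ended with a minimum of 200 UMIs. The call in oligodendrocytes held under every alternative run for single genes, although 10 cells held 89.7% of its UMIs in set 4. G0s2, an inhibitor of triglyceride breakdown, stood at 3.03 and 22.3 CPM in microglia, 5.01 and 29.6 CPM in endothelial cells and 1.43 and 10.0 CPM in oligodendrocytes, and without the richest 1% of cells it was called in none of the 3. In microglia and in oligodendrocytes 0 UMIs of G0s2 were then left in set 3 and 24 in set 4, too few to be measured, and in endothelial cells its log2 ratio was 0.82. Mzb1, a chaperone of antibody-secreting cells, was called in endothelial cells (2.51 and 31.8 CPM) and oligodendrocytes (4.80 and 47.1 CPM). Cells with at least 50 UMIs of Igh-6 and Ighm together were 51 of 5315 in set 3 and 122 of 8760 in set 4, or 0.960% (0.715 to 1.26%) and 1.39% (1.16 to 1.66%).

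**Figure D5:**
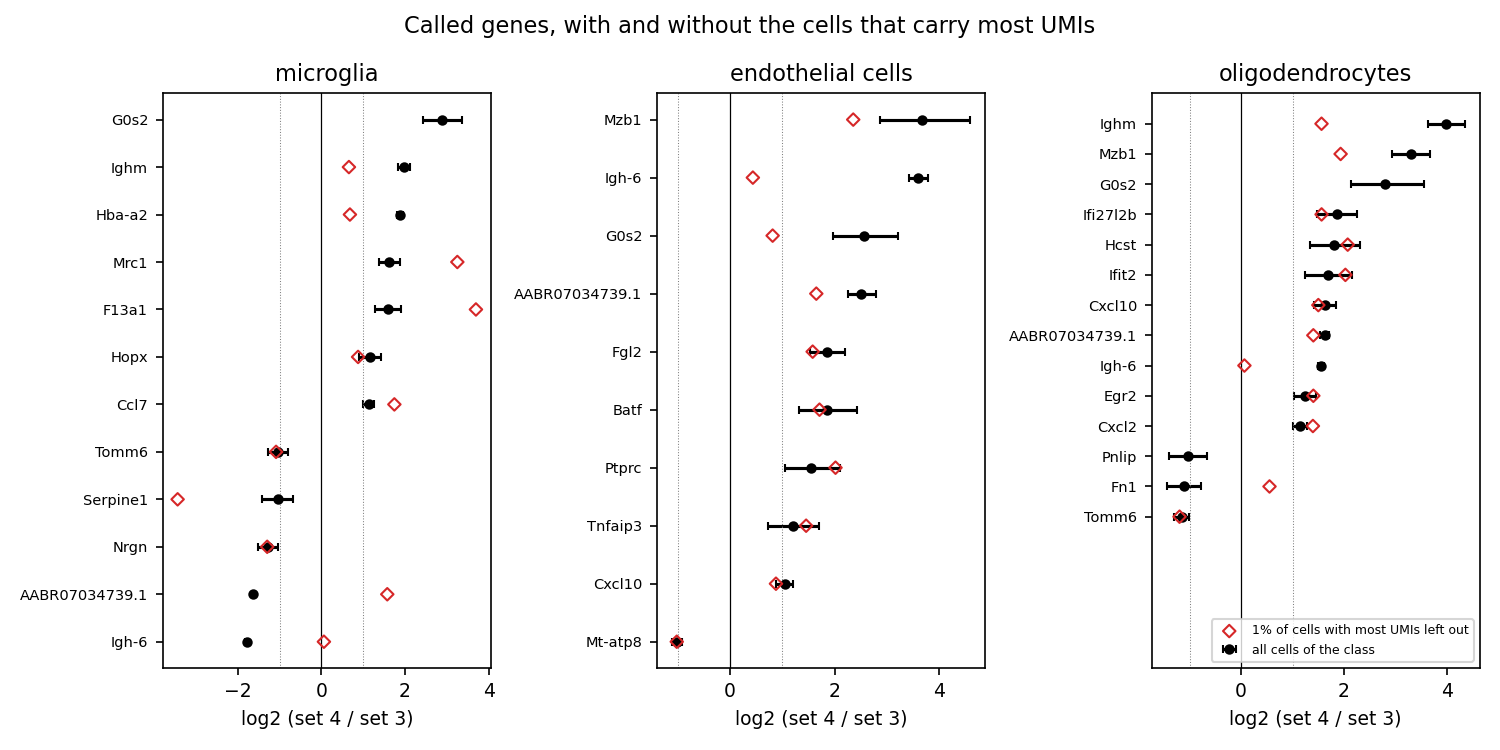
Log2 ratio of set 4 to set 3 (horizontal axis) for the called genes named by rule with at least 200 UMIs (vertical axis) in 3 cell classes. Black points and bars are all cells of the class with 95% intervals for counting error, red diamonds leave out the 1% of cells richest in the gene (no diamond where no ratio could be had), and dotted lines mark 2-fold; Igh-6 moves to near 0 in microglia and oligodendrocytes while Tomm6 stays near -1.

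Genes of the glucocorticoid response, which stress hormones induce, showed no call in any class. The rule called only 0.168% to 0.95% of all genes per direction, so a list of this size without a call says little. Their median log2 ratios were 0.07 over 18 genes in microglia, -0.07 over 19 in endothelial cells and 0.08 over 19 in oligodendrocytes. In microglia 7 intervals lay above 1 and 7 below, in endothelial cells 4 and 8, and in oligodendrocytes 8 and 0. Sets 1 and 2, compared by the same rule, differed at 1.41% (higher in set 2) and 2.86% (higher in set 1) of genes in microglia, 0.521% and 1.19% in endothelial cells and 0.857% and 2.99% in oligodendrocytes.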

How the data were processed

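Dissociated rat hippocampus was profiled by 10x Genomics Chromium chemistry (version 3, reading the 3' end of each RNA), per the labels' protocols. The authors deposited 1 matrix of UMI counts, whole numbers with no normalisation, written by Cell Ranger 5.0.0 per the file headers. Cell Ranger, STAR and the build Rnor_6.0 are named in the submitters' processing notes. How cells were called, and which annotation was used, is not given in the sources used here.

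Cells of sets 3 and 4 were filtered and classed as described, and a cell could belong to more than 1 class. UMIs were summed per class and set and divided by the total (CPM). Shares have exact binomial (Clopper-Pearson) intervals, their differences Newcombe intervals, and ratios exact conditional binomial intervals. With 1 library per set there was no test and no p-value. The depth per set, given above, limits precision at low genes. Droplet intervals treat UMIs as independent.

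Doublets were called with Scrublet (scanpy 1.11.5, expected share 6%, seed 1), 129 in set 3 and 334 in set 4, and were kept except in 1 alternative. TMM factors came from edgeR 4.0.16 on R 4.3.3. Other tools were Python 3.11.15, numpy 2.4.6, scipy 1.17.1 and pandas 2.3.3. The call rule was checked on simulated data.

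The members, the 33 gene lists and the 20 marker lists were chosen with earlier results of these data known. Of 500 list entries 18, and of 141 marker entries 12, matched no symbol. Named genes were, per class, the 6 called genes with the largest and the 6 with the smallest ratio among those with at least 200 UMIs and no clone name, called list members, list extremes, and genes called in 3 classes or in opposite directions. Clec10a, Ccl5, Fos, Gapdh and the other genes named outside that rule were chosen after their values were seen, as were the rules for border macrophages, T cells and immunoglobulin-rich cells and the alternatives that leave out the richest 1% of cells, leave out immunoglobulin-rich cells, or change only the mitochondrial or only the depth limit.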

Additional observations from a re-analysis of the deposited data

Results flagged for a closer look

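For 4 genes, set 4 was called higher in 1 cell class and lower in another. Each class gave 1 value per set, so the difference between classes was not tested. Fcnb, a ficolin gene of myeloid cells, had a log2 ratio of 2.15 in microglia and -5.71 in oligodendrocytes, where 10 cells held all of its UMIs in either set. Igh-6 had log2 ratios of -1.79 in microglia, 3.60 in endothelial cells and 1.55 in oligodendrocytes. Fcrla, an Fc receptor-like gene of B cells, had -2.09 in endothelial cells and 1.27 in oligodendrocytes, and both calls ended with a minimum of 200 UMIs. The clone-named gene AABR07034739.1 had -1.65 in microglia, 2.51 in endothelial cells and 1.63 in oligodendrocytes.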

How the results depend on the processing

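Of 103 alternative values of the shares and gene counts, 68 stayed near the reported value, 31 moved and 4 changed direction. Of 561 for single genes, 406 stayed, 144 moved and 11 changed direction. The stricter cell filter (1000 UMIs, 500 genes, 10% mitochondrial UMIs) gave -4.77 points for microglia, 4.49 for oligodendrocytes and 1.90 for endothelial cells, and its mitochondrial part alone gave -3.77, 4.29 and 1.92. With no minimum of UMIs, 204 genes were higher in set 4 and 277 in set 3 in microglia, 220 and 127 in endothelial cells, and 272 and 138 in oligodendrocytes. With a minimum of 200, which tests fewer genes, the counts were 26 and 7, 15 and 1, and 21 and 4, and 1 gene was called in all 3 classes. Thinning, which leaves fewer UMIs, gave 11 higher in set 3 in microglia, 42 and 6 in endothelial cells, 48 and 8 in oligodendrocytes, and 0 in all 3 classes. Removing doublets left 49 higher in set 4 in endothelial cells and 40 in oligodendrocytes. In oligodendrocytes the stricter filter gave 57 higher in set 4 and 41 in set 3, and cells of 1 class 65 higher in set 4. In endothelial cells the mean of per-cell CPM gave 30 higher in set 3 and doubled class thresholds 10. Leaving out the richest 1% of cells gave 34 higher in set 3 in microglia, 36 in oligodendrocytes and 5 genes called in all 3 classes. The causes were not tested.

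Genes that changed direction were, in microglia, AABR07034739.1 (1.58) and Igh-6 (0.0588) without the richest 1% of cells, Igh-6 without immunoglobulin-rich cells (0.0441), Ccl7 without border macrophages (-0.0285), and Slc38a5 with cells of 1 class (1.25), per-cell CPM (0.21), doubled thresholds (0.0899) and no border macrophages (0.91). In oligodendrocytes they were AABR07034739.1 with per-cell CPM (-0.20), Chac1 thinned (-0.00733) and Fn1 without the richest 1% (0.55). No paired analysis was possible because each set is 1 library with no replicate number. For the same reason no replicate could be left out.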

Other observations

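Cells outside the 3 classes were 15.4% of set 3 (818 cells) and 16.9% of set 4 (1483 cells). Among them, cells with at least 2 UMIs of the T cell genes Cd3d, Cd3e and Cd3g were 22.2% (19.4 to 25.3%) in set 3 and 23.5% (21.3 to 25.7%) in set 4. Cells with at least 4 UMIs of the pericyte genes Kcnj8, Vtn and Pdgfrb were 201 of 818 in set 3 (21.7 to 27.7%) and 237 of 1483 in set 4 (14.2 to 17.9%). Cells with at least 2 UMIs of the oligodendrocyte precursor genes Pdgfra and Cspg4 were 16.5% (14.0 to 19.2%) and 11.2% (9.63 to 12.9%).

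AABR07060872.1, a clone-named gene, had a UMI in 73.6% of thinned microglia, 69.3% of endothelial cells and 71.1% of oligodendrocytes in set 3, and in 90.2%, 89.1% and 89.4% in set 4. Its share was alike across cell types within a set and differed between sets. Over all cells its log2 ratio was -0.0016 in microglia, 4.84 in endothelial cells and 2.38 in oligodendrocytes. In sets 3 and 4, 10 cells held 96.5% and 84.9% of its UMIs in microglia. The shares were 10.4% and 90.6% in endothelial cells and 76.0% and 89.6% in oligodendrocytes. Without the richest 1% of cells its log2 ratio was 1.15, 1.47 and 1.12.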
